A study of Mus musculus with 14 samples.

Results

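The genes described here are the transcription factor gene Atf4, 8 genes known as targets or partners of ATF4 (Atf3, Atf5, Ddit3, Trib3, Chac1, Asns, Cebpb and Vldlr) and Nupr1, a small stress-induced nuclear protein gene. Members were chosen by name, and the choice rested in part on measured values: Nupr1 was taken because its 24 h response differed between the genotypes in these same libraries. Its values at 0 h and 24 h are therefore given as a description without a test. The 10 names covered 11 of the 54446 gene identifiers in the tables, because Ddit3 was listed under a second identifier that stayed below the filter with a mean of 0.0409 TPM. The other 10 identifiers were among the 18232 genes tested, those whose level averaged 1 TPM or more over the libraries.

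Bulk RNA-seq was performed on E14 mouse embryonic stem (ES) cells, a feeder-free line kept in serum with LIF. Wild-type (WT) cells were untreated (0 h) or exposed to the mTOR inhibitor INK128 (mTORi) for 24, 72 or 144 h, and a Tet1/2 double knockout (DKO) line was sampled at 0, 24 and 72 h. Each of the 7 groups had 2 libraries, 14 in all. mTORi places ES cells in a dormant state that is used as a culture model of embryonic diapause, and the comparison of genotypes asks how cells without the DNA demethylases TET1 and TET2 respond to it. The DKO line was derived from E14 by Cas9 deletion and single-cell sorting, so genotype and clone cannot be told apart.

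The integrated stress response begins with kinases that phosphorylate the translation factor eIF2. This lowers protein synthesis in general but lets ribosomes reach the coding sequence of Atf4 mRNA past its upstream open reading frames. ATF4 protein then pairs with C/EBP proteins on composite C/EBP-ATF elements and switches on genes for amino acid synthesis and import, for charging of tRNA and for feedback on the response itself. Active mTORC1 also raises ATF4 in growing cells. The RNA-seq measured mRNA only, not ATF4 protein.

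Promoter sequence was read for the members because they are known as genes of 1 pathway. The element TGATGNAA (TTNCATCA on the other strand) was searched on both strands of RefSeq promoter windows on GRCm38, each from 250 bases before to 50 bases after an annotated start. It was found in windows of 6 of the 10 members, Asns, Atf3, Chac1, Nupr1, Trib3 and Vldlr, and in 3.97% of all 32851 windows (4.51% of 27025 genes). No match was found for Atf4, Atf5, Ddit3 or Cebpb. The Trib3 match, TTACATCA, lay 15 to 22 bases past the start. The palindrome TGACGTCA, a cAMP response element, was in 0 of the 12 member windows and in 1.79% of all windows. The stretches around the other 5 matches are shown on the gene's strand, with the match in capitals. They are cut to 30 bases where GENCODE vM21 places an exon of the gene.
Asns (chr6:7693214-7693243, minus strand, match at positions -23 to -16 from the start): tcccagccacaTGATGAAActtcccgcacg
Atf3 (chr1:191183410-191183469, minus strand, match at positions -110 to -103 from the start): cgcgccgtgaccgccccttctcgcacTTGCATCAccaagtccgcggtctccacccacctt
Chac1 (chr2:119351023-119351082, plus strand, match at positions -193 to -186 from the start): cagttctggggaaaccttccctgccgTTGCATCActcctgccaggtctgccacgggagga
Nupr1 (chr7:126625562-126625591, minus strand, match at positions -110 to -103 from the start): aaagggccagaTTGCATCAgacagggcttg
Vldlr (chr19:27216809-27216838, plus strand, match at positions -200 to -193 from the start): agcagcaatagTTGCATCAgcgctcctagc
Atf3, Chac1, Nupr1 and Vldlr held the same 8 letters, TTGCATCA, while Asns held TGATGAAA in the opposite orientation.

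Levels are TPM, a transcript abundance scaled for transcript length and library size, multiplied by 1 ERCC spike-in factor per library (1.0 to 2.81) unless deposited TPM are named. Factors of replicates 1 and 2 differed most in DKO, at 24 h (2.24 and 1.36) and 72 h (2.53 and 1.73), which adds to the spread between these replicates. Log2 changes are differences of log2(TPM + 1), which understate changes of genes near or under 1 TPM. Replicates are given in the order 1, 2. A gene was called at an adjusted p under 0.05 (limma over all 18232 genes, Benjamini-Hochberg). The median of all genes itself moved on this scale, by -0.33 at 24 h, -0.33 at 72 h and -0.83 at 144 h in WT, and by -0.49 at 24 h and -0.12 at 72 h in DKO, against 0 h of the same genotype. In deposited TPM these medians lay between -0.01 and 0.14. Lower RNA per cell and fewer cells of a type cannot be told apart in bulk libraries. Pluripotency markers summed to 4126 to 6326 deposited TPM in every library. Primitive endoderm markers summed to 100.4 and 182 deposited TPM in WT at 24 h and to 12.6 to 70.6 in the other 12 libraries, and trophectoderm markers to 132 in WT at 24 h replicate 1 against 21.0 to 65.8 in the other 13. Mesendoderm markers summed to 6.72 and 5.49 deposited TPM in WT at 24 h against 1.56 to 2.95 in the other 12 libraries, and neuroectoderm markers to 5.39 to 8.25 in the 4 libraries at 24 h against 10.7 to 17.4 in the other 10. Feeder markers summed to 10.5 and 17.7 deposited TPM in DKO and 8.22 and 5.68 in WT at 0 h, to 2.68 and 7.42 in DKO and 2.83 and 1.29 in WT at 24 h, and to 3.07 to 7.45 later. Only 1 of the 5 feeder markers passed the filter, and Postn was under 0.1 deposited TPM in every library. This sum alone therefore does not show feeder cells. Any part of other cell types in the changes from 0 h was not tested. Tet2 was lower in all 6 DKO libraries (27.1 to 55.0 TPM) than in all 8 WT libraries (129 to 210 TPM), while Tet1 overlapped between the genotypes (238 to 602 against 344 to 516 TPM). The study checked the knockouts by PCR and by western blot for TET1 and TET2, and these RNA levels do not measure the proteins.

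Under mTORi, members fell in both genotypes. In WT, Chac1, Trib3 and Atf4 were called lower at 24 h and after, Ddit3, Atf5 and Vldlr at 72 h and after, and Atf3, Cebpb and Asns at 144 h. With replicate numbers blocked inside each genotype, Atf5 was also called at 24 h (adjusted p = 0.0368), and Atf3 (adjusted p = 0.0118), Cebpb (adjusted p = 0.0214) and Asns (adjusted p = 0.0254) at 72 h. At 24 h, 3 of the 9 members other than Nupr1 were called lower in WT, beside 8.73% of all genes, and 8 of the 9 in DKO, beside 18.7%. The DKO count was 6 in deposited TPM, beside 13.3%. It was 3 without DKO 0 h replicate 1, where the genes called lower went from 3408 to 760 of 18232, and the WT count was 0 without WT 24 h replicate 1, where they went from 1592 to 266. The panels of values by library show each of these courses.

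**Figure D1:**
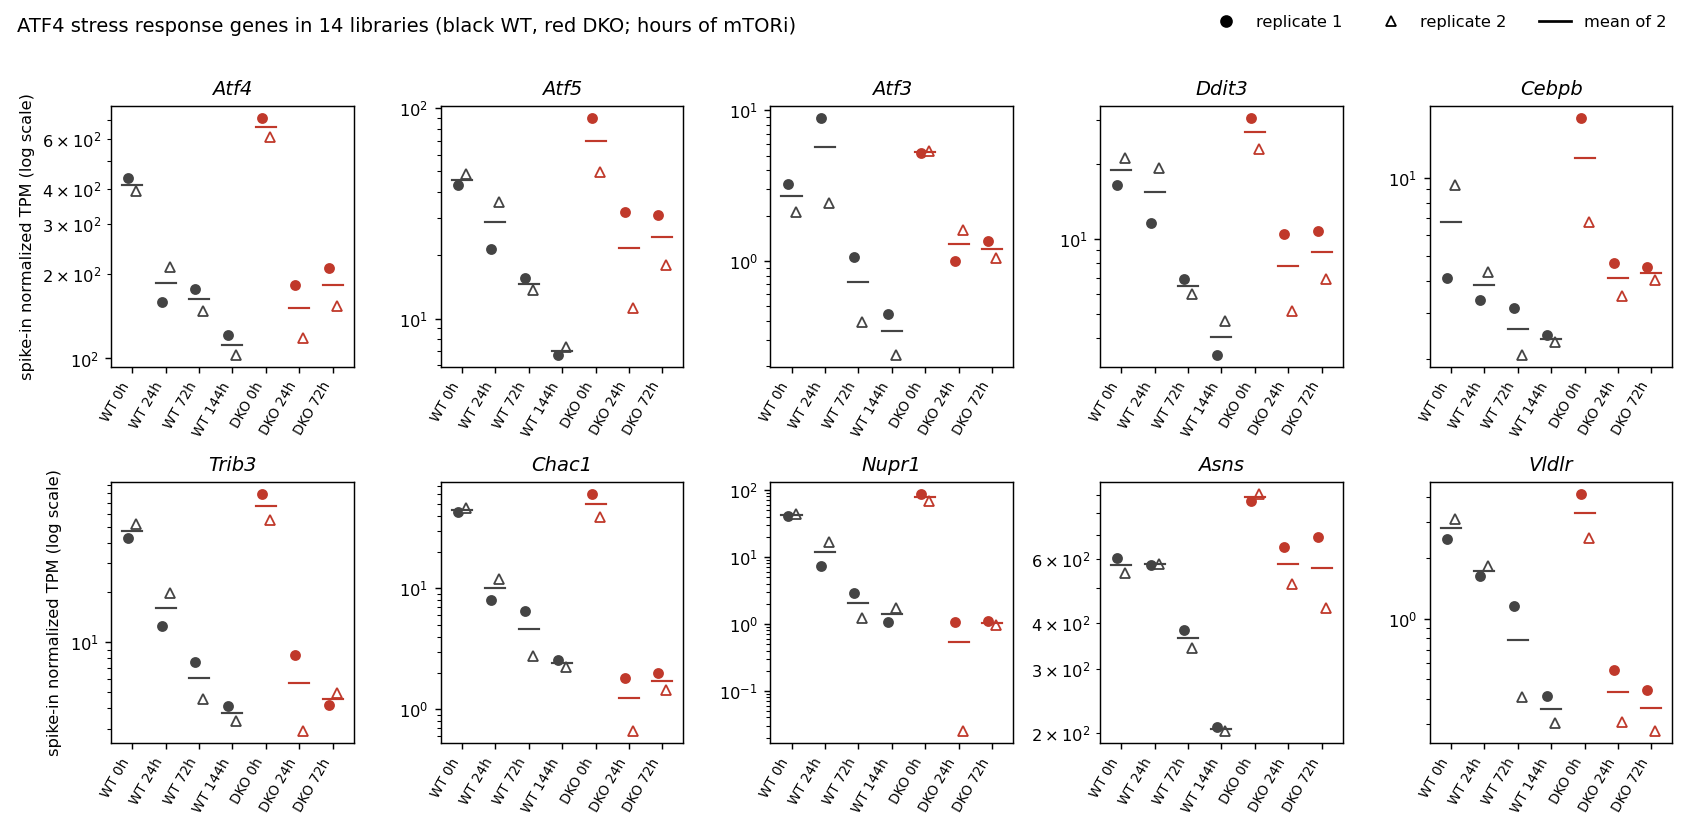
Spike-in normalized TPM (log axis, a separate range for each gene) of the 10 genes in the 14 libraries, grouped by genotype and hours of mTORi; filled circles are replicate 1, open triangles replicate 2 and lines the mean of 2. Nupr1 sits at 40.8 and 44.2 TPM in WT and 86.7 and 68.0 TPM in DKO at 0 h, and at or below 1.10 TPM in all 4 DKO libraries under mTORi.

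Atf4 (chr15:80255184-80257541, plus strand) encodes the central transcription factor of the response, and after Asns had the highest level of the group. It was at 435 and 391 TPM in WT at 0 h, 159 and 211 TPM at 24 h, 177 and 147 TPM at 72 h, and 121 and 103 TPM at 144 h. The DKO levels were 713 and 609 TPM at 0 h, 183 and 118 TPM at 24 h, and 210 and 153 TPM at 72 h. In both genotypes every treated library was below both 0 h libraries, and the treated groups of WT at 24 h and 72 h and of DKO overlapped one another. Atf4 fell in WT, with a log2 change of -1.17 at 24 h (SE 0.28, adjusted p = 0.0117), -1.35 at 72 h (adjusted p = 0.00706) and -1.88 at 144 h (adjusted p = 0.00011). The DKO changes were -2.16 at 24 h (adjusted p = 0.0001) and -1.87 at 72 h (adjusted p = 0.000823). In deposited TPM the WT changes were -0.79, -0.92 and -0.85 at the 3 times, so that the further decline from 72 h to 144 h (-0.53, adjusted p = 0.265) became 0.07 without the spike-in factor.

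Atf5 (chr7:44812256-44816658, minus strand), an ATF4 relative that is also controlled by upstream open reading frames, was at 43.0 and 48.5 TPM in WT at 0 h, 21.5 and 35.9 TPM at 24 h, 15.6 and 13.7 TPM at 72 h, and 6.70 and 7.31 TPM at 144 h. The WT groups did not overlap, and the level at 144 h was 15.3% of that at 0 h (31.3% in deposited TPM). Atf5 fell at 72 h (log2 change -1.58, adjusted p = 0.0246) and 144 h (-2.55, adjusted p = 0.000237), while the 24 h change of -0.70 did not pass (adjusted p = 0.29). With the replicate number as a block within each genotype, the 24 h change passed as well (adjusted p = 0.0368). In DKO the 2 replicates stood further apart, at 89.9 and 49.9 TPM at 0 h, 32.1 and 11.2 TPM at 24 h, and 31.0 and 17.9 TPM at 72 h. It fell in DKO at 24 h (-1.76, adjusted p = 0.00703). At 72 h its change of -1.47 was just outside the threshold (adjusted p = 0.0532, and 0.00057 with the block). Il4i1 and Nup62 overlap Atf5 on the opposite strand, and reads of overlapping genes cannot be told apart where strand was not used in the counting, which the sources used here do not state.

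Ddit3 (chr10:127290774-127296288, plus strand) encodes CHOP, a C/EBP-family factor that ATF4 induces and that is linked to cell death under prolonged stress. It was at 16.6 and 21.2 TPM in WT at 0 h, 11.6 and 19.3 TPM at 24 h, 6.88 and 6.03 TPM at 72 h, and 3.41 and 4.67 TPM at 144 h. The 24 h and 0 h libraries overlapped, and the change of -0.31 in WT at 24 h (adjusted p = 0.635) turned to 0.04 in deposited TPM. Ddit3 fell at 72 h (log2 change -1.41, adjusted p = 0.0267) and 144 h (-1.98, adjusted p = 0.000653). In DKO it was at 30.7 and 23.0 TPM at 0 h, 10.5 and 5.12 TPM at 24 h, and 10.8 and 6.91 TPM at 72 h, with both treated groups below both 0 h libraries. The DKO changes were -1.72 at 24 h (adjusted p = 0.00451) and -1.51 at 72 h (adjusted p = 0.0305). Mars and Gm4189 overlap Ddit3 on the opposite strand.

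Atf3 (chr1:191170296-191218039, minus strand) encodes a stress-induced factor of the same family that acts mostly as a repressor. From 0 h to 24 h in WT, Atf3 had the largest log2 rise of the members, which did not pass the test. It was at 3.24 and 2.12 TPM at 0 h, 8.89 and 2.43 TPM at 24 h, 1.06 and 0.395 TPM at 72 h, and 0.447 and 0.237 TPM at 144 h. The high mean at 24 h came from replicate 1, the library with the highest trophectoderm marker sum, and replicate 2 lay between the 0 h libraries. The log2 change was 0.68 (SE 0.41, adjusted p = 0.301), and -0.08 without replicate 1 of that group. At 72 h in WT the change of -1.10 passed with the block but not without it (adjusted p = 0.0118 and 0.0993). Atf3 fell in WT at 144 h (log2 change -1.44, adjusted p = 0.00856). DKO libraries held 5.19 and 5.35 TPM at 0 h, 0.994 and 1.60 TPM at 24 h, and 1.36 and 1.05 TPM at 72 h, and both changes passed (-1.46, adjusted p = 0.0192, and -1.51, adjusted p = 0.046). These 3 calls were lost in deposited TPM, where the changes were -0.77, -0.78 and -0.95 with adjusted p from 0.118 to 0.209. Gm24748 lies within the Atf3 span on the opposite strand.

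Cebpb (chr2:167688915-167690418, plus strand) encodes a C/EBP factor that can pair with ATF4. Its replicates at 0 h were far apart, 4.10 and 9.38 TPM in WT and 17.0 and 6.77 TPM in DKO. The treated libraries were narrower, from 2.07 to 4.33 TPM in WT and from 3.49 to 4.69 TPM in DKO. The change was called in WT at 144 h (-1.10, adjusted p = 0.0333) and in DKO at 24 h (-1.23, adjusted p = 0.0429), and neither call held in deposited TPM (adjusted p = 0.551 and 0.16). At 72 h the changes of -1.03 in WT and -1.17 in DKO passed with the block (adjusted p = 0.0214 and 0.0161) but not without it (adjusted p = 0.121 and 0.116). Tmem189 overlaps it on the opposite strand.

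Trib3 (chr2:152337422-152344032, minus strand) encodes a pseudokinase induced by ATF4 and CHOP that dampens ATF4 activity in turn. It was at 42.8 and 52.1 TPM in WT at 0 h, 12.5 and 19.7 TPM at 24 h, 7.59 and 4.55 TPM at 72 h, and 4.13 and 3.33 TPM at 144 h. The 4 WT groups followed one another without overlap, down to 7.87% of the 0 h level. In deposited TPM the groups at 72 h (4.59 and 3.05 TPM) and 144 h (3.86 and 3.33 TPM) overlapped, and 16.0% of the 0 h level was left. Its log2 changes at the 3 times were -1.53 (adjusted p = 0.0194), -2.80 (adjusted p = 0.000477) and -3.35 (adjusted p = 1.68e-05). In DKO, Trib3 was at 78.9 and 54.9 TPM at 0 h, 8.42 and 2.88 TPM at 24 h, and 4.15 and 4.90 TPM at 72 h. It had thus fallen to 8.45% of its DKO 0 h level at 24 h, a log2 change of -3.47 (adjusted p = 3.10e-05), and at 72 h the change was -3.60 (adjusted p = 4.54e-05). The DKO libraries at 24 h spanned the levels of WT at 72 h.

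Chac1 (chr2:119351229-119354381, plus strand) encodes an enzyme that breaks down glutathione, and its transcription is a common readout of the ATF4 and CHOP branch. It was at 42.7 and 46.2 TPM in WT at 0 h, 8.05 and 12 TPM at 24 h, 6.47 and 2.77 TPM at 72 h, and 2.55 and 2.24 TPM at 144 h. On the spike-in scale the WT groups did not overlap, and the log2 changes of -2.06 (adjusted p = 0.00294), -3.10 (adjusted p = 0.000188) and -3.74 (adjusted p = 4.75e-06) were the largest of the 9 tested members. In deposited TPM the groups at 72 h (3.91 and 1.86 TPM) and 144 h (2.38 and 2.24 TPM) overlapped, and the 144 h change was -2.74. DKO cells had 60.3 and 39.2 TPM at 0 h, 1.83 and 0.658 TPM at 24 h, and 1.99 and 1.44 TPM at 72 h. All 4 treated DKO libraries were lower than every WT library. The DKO changes were -4.52 at 24 h (adjusted p = 1.37e-06) and -4.20 at 72 h (adjusted p = 7.44e-06), leaving 2.50% and 3.45% of the DKO 0 h level.

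Asns (chr6:7675169-7693254, minus strand) encodes asparagine synthetase, a classic amino acid response gene, and was the most abundant member. It was at 604 and 549 TPM in WT at 0 h, 578 and 582 TPM at 24 h, 383 and 343 TPM at 72 h, and 208 and 202 TPM at 144 h. The 24 h libraries lay between the 0 h libraries (log2 change 0.01, adjusted p = 0.985), and in deposited TPM both were above them, at 403 and 314 against 286 and 260 TPM (0.38, adjusted p = 0.0866). Asns fell at 144 h (log2 change -1.49, adjusted p = 0.000375), and also in deposited TPM (-0.46, adjusted p = 0.0475). In DKO, Asns was at 866 and 904 TPM at 0 h, 646 and 513 TPM at 24 h, and 691 and 440 TPM at 72 h. All 4 treated libraries were lower, but the changes of -0.62 and -0.68 did not pass (adjusted p = 0.0987 and 0.145). They passed with the block within each genotype (adjusted p = 0.0264 and 0.0316), as did the change in WT at 72 h (-0.67, adjusted p = 0.112 without and 0.0254 with the block). In deposited TPM the DKO libraries at 24 h overlapped those at 0 h (289 and 378 against 308 and 381 TPM). The DKO changes there were -0.05 at 24 h and -0.38 at 72 h (limma, adjusted p = 0.853 and 0.0947).

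Vldlr (chr19:27216484-27254231, plus strand) encodes the very low density lipoprotein receptor, which is induced by ATF4 in several cell types. It was low throughout, at 2.49 and 3.13 TPM in WT at 0 h, 1.62 and 1.83 TPM at 24 h, 1.16 and 0.411 TPM at 72 h, and 0.411 and 0.305 TPM at 144 h. The WT groups at 72 h and 144 h met at 0.411 TPM and the others were apart. Vldlr fell at 72 h (log2 change -1.12, adjusted p = 0.0442) and 144 h (-1.48, adjusted p = 0.0021). The 72 h call was lost with a pseudocount of 0.1 (adjusted p = 0.0731), without the filter on low values (adjusted p = 0.076) and without any 1 of 7 libraries, all 4 of its own groups among them. In DKO it was at 4.15 and 2.51 TPM at 0 h, 0.556 and 0.306 TPM at 24 h, and 0.444 and 0.276 TPM at 72 h, with log2 changes of -1.58 (adjusted p = 0.00388) and -1.65 (adjusted p = 0.00913). The DKO level at 24 h was 12.9% of that at 0 h, against 61.4% in WT.

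Nupr1 (chr7:126623249-126630861, minus strand) encodes a small chromatin-associated protein that ATF4 and other stress pathways induce. It was at 40.8 and 44.2 TPM in WT at 0 h, 7.20 and 16.7 TPM at 24 h, 2.85 and 1.24 TPM at 72 h, and 1.06 and 1.71 TPM at 144 h. In DKO it was at 86.7 and 68.0 TPM at 0 h, 1.05 and 0.0248 TPM at 24 h, and 1.10 and 0.968 TPM at 72 h. The DKO libraries thus started above the WT libraries and at 24 h were below both WT libraries of that time, with replicate 2 close to 0. The order of the group means was DKO 0 h, WT 0 h, WT 24 h, WT 72 h, WT 144 h, DKO 72 h and DKO 24 h, and neighbours among the last 4 overlapped. The level left at 24 h was 28.2% of the 0 h mean in WT and 0.695% in DKO, and in deposited TPM 34.9% and 0.821%. The log2 change at 24 h was -1.85 in WT and -5.75 in DKO. The difference of these responses was -3.90 (SE 0.59), the value that chose the gene, and ranged from -4.45 to -3.34 when any 1 library was left out. In deposited TPM it was -3.21. With a pseudocount of 0.1 the difference was -5.72 and the DKO change -7.66. Outside the libraries that chose it, Nupr1 did not differ detectably between WT at 144 h and 72 h (-0.31, adjusted p = 0.556) or between the genotypes at 72 h (-0.53, SE 0.42, adjusted p = 0.374).

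Counted over the 9 members other than Nupr1, 3 were called lower in WT at 24 h, where 8.73% of all tested genes were called lower. The 3 were also called in deposited TPM, with a background of 14.1%. When replicate numbers were blocked inside each genotype, 4 were called, with a background of 25.7%. At 72 h in WT, 6 were called lower on the spike-in scale and in deposited TPM, with backgrounds of 7.6% and 11.4%, and all 9 with the block, with 25.4%. The spike-in count of 6 became 2 without 0 h replicate 1, 0 h replicate 2 or 72 h replicate 2, and 3 without 72 h replicate 1. The genes called lower went from 1385 to 424, 161, 58 and 445 in these fits. At 144 h all 9 were called lower, but so were 50.5% of all genes, and 66.3% with the block. In deposited TPM, 7 of the 9 were called lower at 144 h beside 11.7% of all genes. Between WT at 144 h and 72 h none of the 9 was called (limma, background 0.389%, smallest adjusted p 0.188, 2 at an unadjusted p under 0.05), and none in deposited TPM (0.121%). With the block, 2 were, Asns and Atf5, beside 18.5% of all genes.

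In DKO at 24 h, 8 of the 9 were called lower, all but Asns, with a background of 18.7%. The count was 6 in deposited TPM, with 13.3%, and 9 with the block, with 38.1%. At 72 h in DKO, 6 of the 9 were called lower beside 2.95% of all genes, the same number in deposited TPM beside 9.06%, and all 9 with the block beside 13.2%. The spike-in count of 6 became 3 without DKO 0 h replicate 1 or 72 h replicate 2, where the genes called lower went from 537 to 160 and 66. The median log2 change of the 9 members was -0.59, -1.35 and -1.88 in WT at 24, 72 and 144 h and -1.72 and -1.51 in DKO at 24 and 72 h. Each was below the median of all genes for that comparison. None of the 9 was called higher in any comparison. Of the 32 changes of these members called against 0 h, 15 were called whichever library was left out. They were those of Chac1 and Trib3 at all times but WT at 24 h, of Atf4 in WT at 144 h and in DKO, and of Atf5, Ddit3, Asns and Vldlr in WT at 144 h. The other 17 were lost without at least 1 library, and 11 of them also without the filter on low values (adjusted p 0.0606 to 0.149), among them those of Trib3 in WT at 24 h and of Atf5, Ddit3 and Vldlr in WT at 72 h. That of Vldlr in WT at 144 h was lost after centring on the library median.

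**Figure D2:**
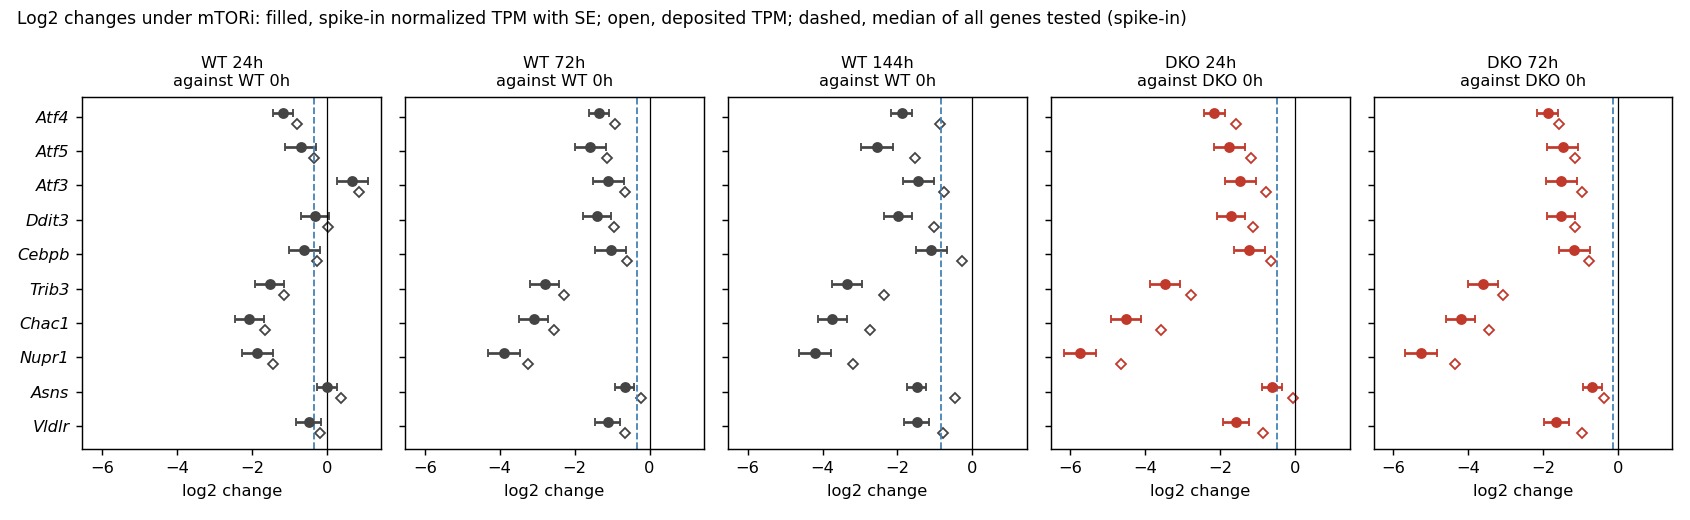
Log2 change of each gene under mTORi against 0 h of the same genotype, 1 panel per group; filled points with bars are spike-in normalized TPM ± SE, open diamonds deposited TPM, and the dashed line the median of all 18232 genes. Chac1, Trib3 and Nupr1 lie furthest to the left in all 5 panels, and Asns lies at 0.01 in WT at 24 h.

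The genotypes were next compared at the same time. At 0 h, all 10 members had a higher mean in DKO than in WT, by 0.13 to 0.84 on the log2 scale, beside 0.29 for the median gene. Of all genes, only 19.2% were lower in DKO. In deposited TPM, 2 of the 10, Chac1 and Vldlr, were lower in DKO, beside 47.0% of all genes. None of the 9 members was called (limma, smallest adjusted p 0.549, 2 at an unadjusted p under 0.05), with 0.0439% of genes called in either direction (0.598% in deposited TPM). At 72 h none was called either (limma, 2 at an unadjusted p under 0.05), with 0.329% of genes called. In deposited TPM, 1 of the 9 was called at 72 h, Chac1, which was lower in DKO (-1.05, adjusted p = 0.0378), with a background of 4.01%. On the spike-in scale its change was -0.97 (SE 0.39, adjusted p = 0.187), beside 0.49 for the median gene.

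The contrasts at 24 h were those on which Nupr1 was chosen, so no p is given for a member, and counts of calls stand as a description from which nothing is read. The mean was lower in DKO than in WT for 9 of the 10 members at 24 h, beside 34.4% of all genes, and Cebpb differed by 0.07. In deposited TPM it was lower for all 10, beside 47.5% of all genes. Nupr1 (-3.06), Chac1 (-2.33) and Trib3 (-1.47) differed most. Atf3 differed by -1.36, but by -0.59 without WT 24 h replicate 1, and Ddit3 and Vldlr each by -0.93. Both DKO libraries were below both WT libraries for Nupr1, Chac1, Trib3, Atf3, Ddit3 and Vldlr, and in deposited TPM also for Atf4 and Atf5. The share of all genes whose libraries separate in this way was not counted, so nothing is read from it. Of the 9, 1 was called, Chac1, with 0.0439% of all genes called (4 in deposited TPM, with 1.37%). The response of DKO minus that of WT at 24 h was below 0 for all 10 members, from -3.90 for Nupr1 to -0.63 for Asns, beside 75.3% of all genes. In deposited TPM it was also below 0 for all 10, beside 52.3% of all genes. None of the 9 was called in either direction (limma, 6 at an unadjusted p under 0.05), with 0.00548% of genes called. With the block 1 of the 9 was called, Chac1, beside 0.0932% of genes.

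At 72 h the differences between responses ran from -1.37 for Nupr1 to 0.11 for Atf5, with a median of -0.41 over the other 9, beside 0.21 for all genes. They were below 0 for 8 of these 9 members, beside 20.8% of all genes (9 of 9 and 34.0% in deposited TPM). None of the 9 was called at 72 h (limma, 0 also at an unadjusted p under 0.05, 0.0% of genes called). For Trib3, 34.0% of the 0 h level was left in WT and 8.45% in DKO at 24 h, and 12.8% and 6.77% at 72 h. For Chac1 the corresponding values were 22.6% and 2.50%, then 10.4% and 3.45%. For Atf4 itself they were 44.8% and 22.8%, then 39.2% and 27.5%.

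**Figure D3:**
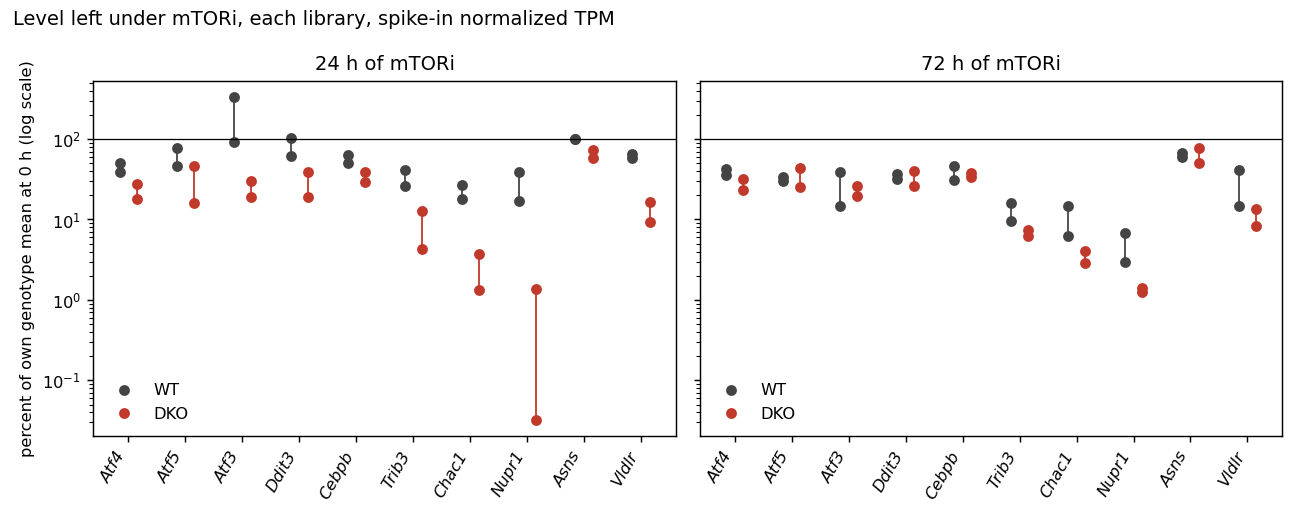
Level of each gene in each library at 24 h (left) and 72 h (right) of mTORi as percent of the mean at 0 h of its own genotype (log axis, spike-in normalized TPM); black, WT; red, DKO; lines join the 2 replicates. Points of the genotypes nearly meet for Atf5 at 24 h (46.9% in WT and 46.0% in DKO). The mean left of Nupr1, the gene chosen on this contrast, is 28.2% in WT and 0.695% in DKO at 24 h.

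Other genes of the pathway were taken from lists by function. Their counts stand beside the shares of all genes called lower, 8.73%, 7.6% and 50.5% in WT at 24, 72 and 144 h and 18.7% and 2.95% in DKO at 24 and 72 h, or with the block 25.7%, 25.4%, 66.3%, 38.1% and 13.2%. Blocked counts are given where they differ by over 1.5 times. The amino acid genes went down with the members from 24 h. Of 12 amino acid synthesis genes tested, 11 fell in WT at 24 h, 10 at 72 h and 12 at 144 h, with median log2 changes of -1.60, -1.89 and -2.29, and 11 and 10 fell in DKO at 24 h and 72 h (medians -2.33 and -1.80). Mthfd2, a mitochondrial folate enzyme, went from 209 ± 18.1 to 32.2 ± 6.75 TPM in WT at 24 h (SD, n = 2, log2 change -2.68) and from 269 ± 48.2 to 15.6 ± 3.99 TPM in DKO (-4.03). Psat1 and Phgdh, enzymes of serine synthesis, fell in WT at 24 h (-2.32 and -2.07). Asns at 0.01 was unlike these genes at that time. Of 9 amino acid transporter genes, 7 fell in WT and 8 in DKO at 24 h, among them Slc7a5, the large neutral amino acid transporter, from 228 ± 17.5 to 85.0 ± 12.9 TPM in WT (-1.42) and from 349 ± 67.1 to 99.6 ± 28.4 TPM in DKO (-1.82). Of 13 tRNA synthetase and tRNA export genes, 9 fell in WT and 13 in DKO at 24 h, with medians of -1.03 and -1.58. Over these 34 genes together, 27 were called lower in WT and 32 in DKO at 24 h (29 and 32 in deposited TPM), and none was called higher.

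The response of DKO minus that of WT at 24 h was below 0 for 33 of the 34 amino acid genes, with a median of -0.55 (32 and -0.35 in deposited TPM), beside 75.3% and -0.19 for all genes, and none was called (limma, 6 at an unadjusted p under 0.05). At 72 h it was below 0 for 13 of 34, with a median of 0.09, beside 20.8% and 0.21 for all genes. In deposited TPM the median at 72 h changed sign, to -0.03 with 19 of 34 below 0, beside 0.09 and 34.0% for all genes.

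Secreted stress factors were lower as well, with 2 of 4 called lower in WT at 24 h (4 with the block) and 4 of 4 at 72 h, and 4 of 4 in DKO at 24 h. Gdf15, a stress-induced cytokine, went from 15.8 ± 6.83 to 1.75 ± 1.45 TPM in DKO at 24 h (-2.66). Of 6 growth brakes and Tribbles relatives, 3 fell in WT and 4 in DKO at 24 h, with Ddit4, an inhibitor of mTORC1, at -1.76 and -2.30 and Eif4ebp1, a translation repressor under mTORC1, at -1.04 and -1.46. Of 13 genes of the other arms of the unfolded protein response, 7 fell in WT and 8 in DKO at 24 h, including the chaperone gene Hspa5 in WT (949 ± 107 to 363 ± 1.58 TPM, -1.38) and Herpud1 in both (-1.76 and -2.95). At 72 h, 2 of the 13 were called lower in WT (8 with the block) and 1 in DKO (2 with the block, and 3 higher and 1 lower in deposited TPM, beside 17.2% and 9.06% of all genes).

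Of 9 genes for eIF2 kinases, phosphatases and their cofactors, 1 fell in WT and 3 in DKO at 24 h, with medians of -0.57 and -0.82, and 5 in each with the block. Eif2s1, the eIF2 alpha subunit, was the 1 in WT (-1.0). Of 14 bZIP partners and relatives, 0 were called in WT at 24 h (limma, 1 at an unadjusted p under 0.05, and 3 called higher and 1 lower in deposited TPM, beside 15.8% and 14.1% of all genes) and 2 lower in DKO, Jdp2 and Nfe2l1 (1 in WT and 6 in DKO with the block). Of 5 genes linked to CHOP in cell death and oxidation, 1 fell in each genotype at 24 h, Ero1l, an oxidase of the endoplasmic reticulum (-1.46 in WT and -1.52 in DKO). With the block 2 fell in DKO. In deposited TPM, 2 were called higher and 1 lower in WT and 1 each in DKO, where 11.6% of all genes were called higher. Of 10 p53 target genes, 0 were called in WT at 24 h (limma, 3 at an unadjusted p under 0.05) and 1 in DKO (3 and 4 with the block). At 72 h in WT 4 of 10 fell, beside 7.6% of all genes (4 in deposited TPM, beside 11.4%, and 9 with the block, beside 25.4%), and in DKO 0 (limma, 3 at an unadjusted p under 0.05, and 6 with the block, beside 13.2%). At 144 h in WT 10 of 10 p53 target genes fell, beside 50.5% of all genes, and 4 of 10 in deposited TPM, beside 11.7%. Against 0 h, no gene of these lists was called higher on the spike-in scale without the block. With it, 1 CHOP-linked gene was, in WT at 24 h and 72 h and in DKO at 72 h (Pmaip1, a cell death gene named after its values were seen), beside 4.48%, 2.85% and 5.34% of all genes called higher.

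**Figure D4:**
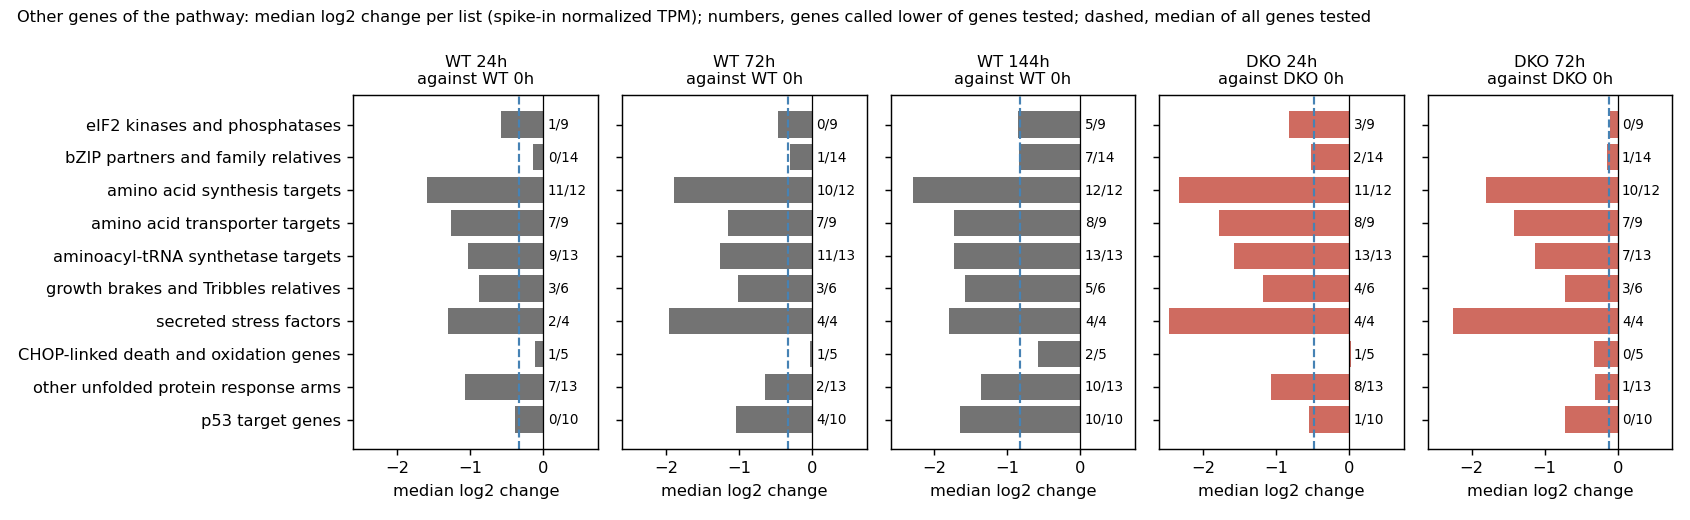
Median log2 change (spike-in normalized TPM) of 10 gene lists under mTORi against 0 h of the same genotype, 1 panel per group; the numbers give genes called lower of genes tested, and the dashed line is the median of all 18232 genes. The amino acid synthesis genes have medians of -1.60 in WT and -2.33 in DKO at 24 h, and the bZIP partners lie near the dashed line.

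Among the 2044 tested genes with a span of at least 200 bases and an SD of at least 0.5 over the libraries, the 5 whose log2(deposited TPM + 1) was most like that of Nupr1 over the 14 libraries were Gm26812 (Pearson r 0.985), Trib3 (0.985), Chac1 (0.980), Cars (0.966) and Sars (0.963). The libraries share time points and genotypes, so these values describe likeness only. Gm26812, an unnamed gene, was low, at 1.27 to 1.62 deposited TPM in WT and 1.55 to 2.01 in DKO at 0 h, and was listed at 0 in both DKO libraries at 24 h. Atf4 stood at r 0.943 with Nupr1, Vldlr at 0.936, Ddit3 at 0.926 and Atf5 at 0.856, while Cebpb (0.635), Atf3 (0.548) and Asns (0.338) were less alike. Over all 45 pairs of members r ran from 0.238, for Chac1 and Asns, to 0.985, for Trib3 and Nupr1.

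The promoter element was last set against all other genes. With the members left out, 284 tested genes held TGATGNAA in a promoter window and 10619 with a window did not. In WT at 72 h, 11.3% of the former and 8.75% of the latter were called lower, with median log2 changes of -0.39 and -0.36. In DKO at 72 h the shares were 8.10% and 3.29% (17.3% and 10.9% in deposited TPM), and in DKO at 24 h 26.8% and 21.5%. These are descriptions of letters in a window and were not tested.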

How the data were processed

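RNA-seq libraries came from ribosomal RNA-depleted total RNA of sorted cells with ERCC spike-ins (KAPA kit). Per the labels the authors trimmed reads with cutadapt 2.4, aligned them to mm10 with STAR 2.7.3a and estimated TPM with StringTie 2.0. The deposited TPM (GENCODE VM19 genes) sum to 1e+06 per library and carry no spike-in scaling. TPM carry no read depth, which is unknown from these tables and was not used here, and 28306 to 29927 genes were above 0 per library. TPM were summed per gene identifier and multiplied by 1 factor per library, the median ratio of the study's spike-in normalized table to the deposited TPM over 482 to 539 genes of at least 1 TPM, all of which lay within 0.1% of it.

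log2(TPM + 1) of the 18232 genes averaging 1 TPM or more was fitted with limma 3.58.1 (R 4.3.3; lmFit, contrasts.fit, eBayes with trend) over 14 libraries in 7 groups, with Benjamini-Hochberg adjustment over all genes. The study's own count test could not be used on TPM. Alternatives were deposited TPM, centring on the library median, a pseudocount of 0.1, no filter, replicate blocks and leaving out each library. The scripts were tested on simulated data. Time points of a replicate were processed in parallel per the study's reporting form. Replicate numbers were taken to pair libraries within a genotype, which neither the form nor the labels state. Replicate differences correlated at 0.222 to 0.341 within DKO and 0.0622 to 0.398 within WT (5 of 6 pairs over 0.1), and at -0.501 to 0.116 between genotypes. Replicates are labelled as separate samples, and p-values measure only the spread between them.

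Members and gene lists were chosen with earlier results of these data known, so no list was tested or adjusted alone. Genes named within lists were the up to 4 called with the largest change per comparison. A list of relatives of the members is not reported here.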

Additional observations from a re-analysis of the deposited data

Results flagged for a closer look

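The response of Nupr1 to 24 h of mTORi differed between the genotypes, with a DKO response minus WT response of -3.90 on the log2 scale. This is the value on which the gene was chosen, so it is a description. It was flagged as a contrast that differed between DKO and WT. The groups have 2 libraries each, too few for a test of single outlying libraries.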

How the results depend on the processing

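Each alternative changed 1 choice. No called change of a member reversed its direction in any alternative. Of the counts over the 9 members other than Nupr1, those for WT at 24 h and 144 h and DKO at 72 h against 0 h stayed within 1.5 times in deposited TPM, after centring on the library median, with a pseudocount of 0.1, without the filter and with a replicate block. Without the filter on low values (38890 genes) the count was 3 in WT at 72 h (beside 639 genes called lower), 5 in DKO at 24 h (2308) and 0 for DKO against WT at 24 h (beside 10 genes called). For DKO against WT at 24 h it was 4 in deposited TPM (beside 250 genes called) and 3 after centring (219), and at 72 h it was 1 in both (732 and 308). A pairing of replicates inside a genotype was assumed. With this block, the count was 2 for WT at 144 h against 72 h (beside 3372 genes called lower). It was 1 for the 24 h response difference (beside 17 genes called). The counts against 0 h were those given with the results. Calls for DKO against WT at one time could not be fitted with this block. With a block over all libraries, the call lost was Cebpb in DKO at 24 h (-1.23, adjusted p = 0.0539). In a pairing with the DKO numbers crossed, added after seeing the data, the counts for DKO against WT were 0, 3 and 1 at 0, 24 and 72 h, beside 339, 257 and 2217 genes called.

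Of 18232 genes, 1592 and 1385 were called lower in WT at 24 h and 72 h and 3408 and 537 in DKO, and these numbers moved as well when a library was left out. Leaving out each library in turn gave counts of 0 to 3 in WT at 24 h, 2 to 7 at 72 h and 7 to 9 at 144 h, 3 to 9 in DKO at 24 h and 3 to 7 at 72 h, 0 to 2 for DKO against WT at 24 h, and 0 to 0 in the other comparisons. The WT count at 24 h was 1 without 0 h replicate 1 or 2 (569 and 288 genes called lower) and 0 without 24 h replicate 1 (266 genes). At 72 h in WT it was 2 without 0 h replicate 1 or 2 (424 and 161 genes) or without 72 h replicate 2 (58 genes), and 3 without 72 h replicate 1 (445 genes). In DKO it was 3 at 24 h without 0 h replicate 1 (760 genes) and 5 without 24 h replicate 2 (975 genes), and 3 at 72 h without 0 h replicate 1 (160 genes) or 72 h replicate 2 (66 genes). A group left with 1 library was assumed to vary like the others. The causes were not tested. Read depth is unknown from these tables, and with 2 libraries a group, small changes could not be seen.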
